A study of Drosophila melanogaster with 40 samples.

Results

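The transcripts described here are those that moved furthest up the polysome order when maternal Smaug was lost. A polysome gradient sorts mRNA by the ribosomes it carries, so the level of a transcript in heavy and light parts of the gradient gives its translation index (TI), here the mean of its log2 levels in pools 3 and 4 minus its log2 level in pool 1. The members were chosen by measured values. Of 6524 transcript rows, the 4893 rows at or above the 25th percentile of mean level over the 40 arrays were kept. Kept rows were given a percentile rank by their mean TI over the 3 *smaug*-mutant gradients and another by their mean TI over the 3 wild-type gradients, and the 150 rows with the largest *smaug*-mutant rank minus wild-type rank were taken. All 150 therefore passed the filter on low values by construction, and the *smaug* versus wild-type contrast is given as a description with no test.

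All gradients came from *Drosophila melanogaster* embryos aged 0 to 2 h. The *smaug*-mutant embryos were laid by mothers homozygous for *smaug1* (3 gradients), and the wild-type embryos by W1118 mothers (3 gradients). A further 2 gradients of *smaug1* embryo lysate treated with puromycin and 2 of *smaug1* lysate treated with cycloheximide completed the 10 gradients. Each drug pair was one lysate split into 2 samples, made in a lysis buffer different from that of the untreated gradients, whose own buffer contained cycloheximide. There was no puromycin gradient of wild-type embryos. The embryos were whole, so that a change in part of the embryo and a change throughout it cannot be told apart. Replicates were labelled as biological.

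Smaug recognises stem-loops in mRNAs. It can keep mRNAs it binds from being translated and can recruit the machinery that removes their poly(A) tails. The early embryo lives on mRNAs loaded by the mother, and control of their translation and decay precedes the start of zygotic transcription. Actively translated mRNAs carry several ribosomes and sediment deep in a sucrose gradient, whereas mRNAs free of ribosomes stay near its top. Puromycin ends nascent chains early and lets ribosomes fall off mRNAs that are being translated, while cycloheximide freezes them in place. The drug thus sets mRNAs held deep in the gradient by translating ribosomes apart from mRNAs held there by other heavy complexes.

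In each gradient, pool 1 held the top 4 mL, pool 2 the next 2 mL, and pools 3 and 4 the next 3 mL each, with the pellet in pool 4. Array medians lay between 9.98 and 14.1 on the log2 scale, and background signals were not used here. The gene table used here tied 35 of the 6524 rows to a gene, 13 of them to exactly 1. Among the 150 members, 2 rows were tied to a gene and 148 are known only by a transcript identifier. None of 8 maternal, 6 zygotic and 5 ovarian marker genes nor *smaug* itself had a row that could be named, so the labelled stage and genotype were not checked against their genes here.

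A pair of gradients stood apart. *smaug* replicate 3 had the highest median TI over kept rows, 1.92, against -0.49 and -0.04 in *smaug* replicates 1 and 2, and the median level of kept rows in its pool 1 was 11.1, against 12.5 and 12.4 in *smaug* replicates 1 and 2. Among untreated gradients, wild-type replicate 1 ordered the kept rows most like *smaug* replicate 1. Its Spearman correlation of TI across the 4893 rows was 0.82 with *smaug* replicate 1, 0.67 with replicate 3 and 0.65 with replicate 2, and 0.69 with wild-type replicate 3 and 0.58 with wild-type replicate 2. Wild-type replicates 2 and 3 correlated at 0.76. These rows are not independent observations. Wild-type replicate 1 and *smaug* replicates 2 and 3 were labelled with Cy3, whereas *smaug* replicate 1 and wild-type replicates 2 and 3 were labelled with Cy5, so dye is partly tied to genotype. Results below are given with and without the gradients that stood apart where they rest on them.

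The members stood in the upper part of the *smaug*-mutant order and at the low end of the wild-type order. Their rank by mean TI lay between 52.5 and 99.5 in *smaug* mutants with a median of 78.4, and between 0.27 and 44.1 in wild type with a median of 15.6. The gain was 90.7 percentile points for the first member, 82.2 for the second, 59.0 at the median and 50.83 for the last. The next rows outside the list gained 50.77 and 50.44 points, so the boundary falls in a continuous range and does not separate a distinct class. In *smaug* mutants 24 members stood in the highest 10% of ranks, and in wild type 47 stood in the lowest 10%. In 49 members the rank was in the highest 25% in *smaug* mutants and in the lowest 25% in wild type. On the TI scale itself the change of the members lay between 2.66 and 5.84 with a median of 3.28 (log2), beside a median of 0.73 over kept rows. Without *smaug* replicate 3 in the mean, the change of the same members lay between 0.60 and 4.30 with a median of 2.12, beside 0.015 over kept rows. Without wild-type replicate 1 the median was 3.75 in members and 1.03 over kept rows.

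**Figure D1:**
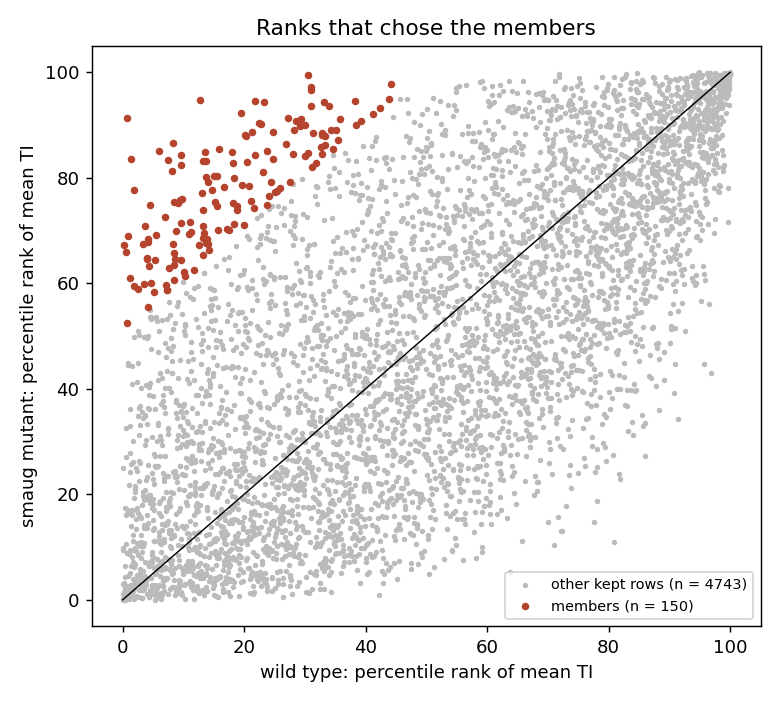
Percentile rank of mean TI in *smaug*-mutant gradients (vertical axis) against that in wild-type gradients (horizontal axis) for the 4893 kept rows. The 150 members (red) occupy the upper left corner, above rank 52.5 in *smaug* mutants and below 44.1 in wild type, and join the cloud of other rows without a gap; the diagonal marks equal ranks.

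The highest gain belonged to FBtr0072302, which ranked 91.4 in *smaug* mutants and 0.76 in wild type. Its TI was 0.86, 1.15 and 6.57 in *smaug* replicates 1, 2 and 3, and -1.86, -3.48 and -2.76 in wild-type replicates 1, 2 and 3. The groups did not overlap, and *smaug* replicate 3 lay far above the other 2 mutant gradients. In pool 1 its log2 level was 12.5, 12.2 and 7.69 in the *smaug* gradients against 13.3, 14.2 and 14.2 in the wild-type gradients. In pool 3 its level was 13.8, 14.3 and 14.5 in the *smaug* gradients against 11.3, 9.95 and 11.0 in the wild-type gradients. The transcript was thus lower at the top of the gradient and higher in its deeper part in every *smaug* gradient.

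The second highest gain belonged to FBtr0073763, at 83.7 in *smaug* mutants and 1.43 in wild type. Its TI was 0.71, 0.92 and 4.76 in *smaug* replicates 1, 2 and 3, and -1.46, -3.83 and -2.11 in wild-type replicates 1, 2 and 3. Here too the 3 *smaug* values lay above the 3 wild-type values. In pool 3 its log2 level was 14.3, 15.3 and 14.9 in the *smaug* gradients against 12.2, 10.9 and 12.1 in the wild-type gradients.

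Of the members with a gene, FBtr0082231 came from *sle* (*slender lobes*), which encodes a nuclear protein needed for the normal organisation of the nucleolus. It stood at position 44 with a gain of 64.1 points. Its TI was 0.074, 0.61 and 7.86 in *smaug* replicates 1, 2 and 3, and 0.13, -2.08 and -1.26 in wild-type replicates 1, 2 and 3. The groups overlapped, since wild-type replicate 1 lay above *smaug* replicate 1, and the mean of 2.85 ± 4.35 in *smaug* mutants (SD, n = 3) rested on replicate 3. In that gradient its pool 1 level was 6.53 on the log2 scale, against 12.9 and 13.1 in *smaug* replicates 1 and 2. Mean TI in wild type was -1.07 ± 1.12 (SD, n = 3). Its percentile rank was 66.6, 68.1 and 99.8 in the *smaug* gradients and 50.2, 17.4 and 21.4 in the wild-type gradients, so that on the rank scale the groups did not overlap.

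The other member with a name, FBtr0077747, is tied by the gene table to both *Rad1*, which encodes a subunit of the ring-shaped clamp that signals DNA damage, and *Sws1*, for which the table gives an upstream open reading frame of the same transcript as a synonym. The values cannot be assigned to one of them. It stood at position 56 with a gain of 61.6 points. Its TI was 0.55, 1.14 and 3.64 in *smaug* replicates 1, 2 and 3, and -0.69, -2.10 and -1.50 in wild-type replicates 1, 2 and 3, with no overlap. Mean TI was 1.78 ± 1.64 in *smaug* mutants and -1.43 ± 0.71 in wild type (SD, n = 3 each).

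Taken by gradient, the median TI of the members was 0.25, 0.85 and 4.11 in *smaug* replicates 1, 2 and 3, and -0.63, -2.31 and -1.52 in wild-type replicates 1, 2 and 3. Over kept rows the same medians were -0.49, -0.04 and 1.92 in the *smaug* gradients and 0.13, -0.88 and -0.38 in the wild-type gradients. The members' median minus that of the kept rows was 1.28 ± 0.79 in *smaug* mutants and -1.11 ± 0.34 in wild type (SD, n = 3 each). In ranks within a gradient, which remove a shift shared by all rows, the members' median was 71.1, 73.5 and 84.2 in the *smaug* gradients and 29.4, 13.1 and 14.3 in the wild-type gradients. Above rank 50 stood 139, 125 and 146 members in the *smaug* gradients, against 32, 0 and 5 in the wild-type gradients. Most members were therefore in the upper part of the order in every mutant gradient and in the lower part in every wild-type gradient, with wild-type replicate 1 holding the most exceptions.

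**Figure D2:**
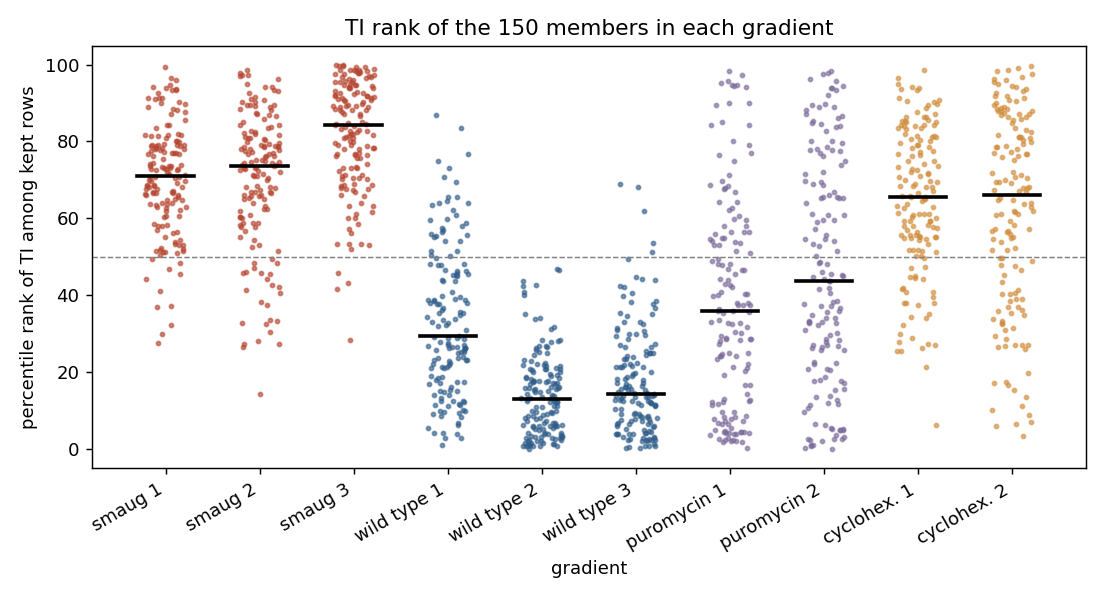
Percentile rank of TI among kept rows for each of the 150 members (points) in each of the 10 gradients, with the median as a bar and rank 50 as a dashed line. Medians are 71.1, 73.5 and 84.2 in *smaug* mutants, 29.4, 13.1 and 14.3 in wild type, 35.8 and 43.7 with puromycin, and 65.6 and 66.0 with cycloheximide.

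All 3 *smaug* TI values lay above all 3 wild-type values in 119 of the 150 members, where 10.7% of all 6524 rows did the same. By rank within each gradient the count was 132, where 13.6% of kept rows did the same. Both counts come from the contrast that chose the members, and nothing is read from them. The spread among gradients was wider in members than in the kept rows. The SD of TI over *smaug* gradients had a median of 2.06 in members and 1.30 in kept rows, and over wild-type gradients a median of 0.94 in members and 0.74 in kept rows. Without *smaug* replicate 3 in the choice, 105 of the 150 rows were still among the 150 with the largest gain, and without wild-type replicate 1 the number was 100.

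How far the gain carries over to a gradient that had no part in the choice was read by choosing 150 rows from 5 gradients and looking up their rank in the gradient left out. The median rank there was 67.6, 66.1 and 71.3 in *smaug* replicates 1, 2 and 3, and 51.8, 17.2 and 18.9 in wild-type replicates 1, 2 and 3. Above rank 50 stood 129, 102 and 127 of the 150 rows in the *smaug* gradients left out, against 80, 8 and 13 in the wild-type gradients left out. In wild-type replicate 1 left out, 70 rows were at or below rank 50 and 80 above it, while the members, whose choice used that gradient, had a median rank of 29.4 there. In *smaug* replicate 2 left out, 48 rows were at or below rank 50, 13 of them in the lowest 25% of ranks. What part the differences between gradients had in the membership was not tested.

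**Figure D3:**
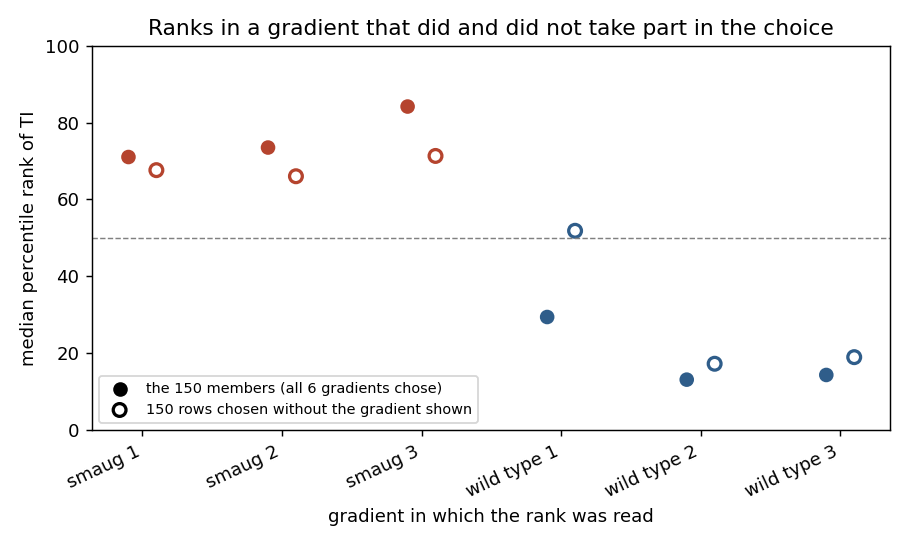
Median percentile rank of TI in each untreated gradient (horizontal axis) for the 150 members, chosen from all 6 gradients (filled points), and for 150 rows chosen without the gradient shown (open points). The open points lie at 66.1 to 71.3 in *smaug* mutants and at 17.2 and 18.9 in wild-type replicates 2 and 3, but at 51.8 in wild-type replicate 1.

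Within one dye the members' order could also be compared. Among Cy3 gradients, 144 members ranked higher in *smaug* replicates 2 and 3 than in wild-type replicate 1, with a median difference of 46.2 points. Among Cy5 gradients, all 150 ranked higher in *smaug* replicate 1 than in wild-type replicates 2 and 3, with a median difference of 53.4 points. These gradients had all taken part in choosing the members, so nothing is read from these counts and differences. When the 150 rows were chosen in the Cy3 gradients alone and read in the Cy5 gradients, their median rank was 64.8 in the *smaug* gradient and 20.1 in the wild-type gradients, and 131 of 150 were higher in the *smaug* gradient. When they were chosen in Cy5 and read in Cy3, their median rank was 70.5 in the *smaug* gradients and 65.0 in the wild-type gradient, and 82 of 150 were higher in the *smaug* gradients. The 2 lists shared 30 rows. The comparison within Cy3 rests on wild-type replicate 1, and dye and that gradient cannot be told apart in it.

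The members' difference between genotypes was largest in pool 1 and in pool 3. As *smaug* mutants minus wild type, the members' median difference in log2 level was -2.35 in pool 1 and -0.15 in pool 2. It was 1.83 in pool 3 and 0.34 in pool 4. Over kept rows the median difference was -0.90, 0.10, 0.47 and -0.67 in pools 1 to 4. Set against the median kept row, 149 of the 150 members had a lower difference in pool 1, 147 a higher one in pool 3 and 138 a higher one in pool 4, whereas in pool 2 there were 42 above and 108 below. Pools 1, 3 and 4 make up the TI that chose the members, so their counts follow largely from the choice and are description only. In pool 3 the mutant gradients differed little from each other. The members' median level there, minus that of kept rows, was 0.59, 0.65 and 0.68 in *smaug* replicates 1, 2 and 3, and -0.36, -1.11 and -0.62 in wild-type replicates 1, 2 and 3. In pool 1 it was uneven, at -0.22, -0.26 and -1.61 in *smaug* replicates 1, 2 and 3, and 0.20, 0.79 and 0.61 in wild-type replicates 1, 2 and 3. Without *smaug* replicate 3 the members' median difference between genotypes was -1.37 in pool 1, 1.68 in pool 3 and -0.14 in pool 4, beside -0.45, 0.30 and -1.04 over kept rows.

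As a share of the signal summed over the 4 pools, the median member had 45.3% ± 9.8 of it in pool 3 in *smaug* mutants and 14.3% ± 6.7 in wild type. In pool 1 it had 13.4% ± 10.5 in *smaug* mutants and 46.4% ± 14.4 in wild type (SD, n = 3 each). The share in pool 4 was 24.2% ± 12.0 in *smaug* mutants and 19.6% ± 4.2 in wild type, a difference smaller than the spread between gradients. The median kept row had 35.0% in pool 3 and 21.3% in pool 1 in *smaug* mutants, and 21.0% in pool 3 and 31.5% in pool 1 in wild type. Pools 3 and 4 together held 58.2%, 66.4% and 88.7% of the signal of the median member in *smaug* replicates 1, 2 and 3, against 44.8%, 28.0% and 30.7% in wild-type replicates 1, 2 and 3. These are shares of array signal scaled by spike-in RNA, not of molecules.

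**Figure D4:**
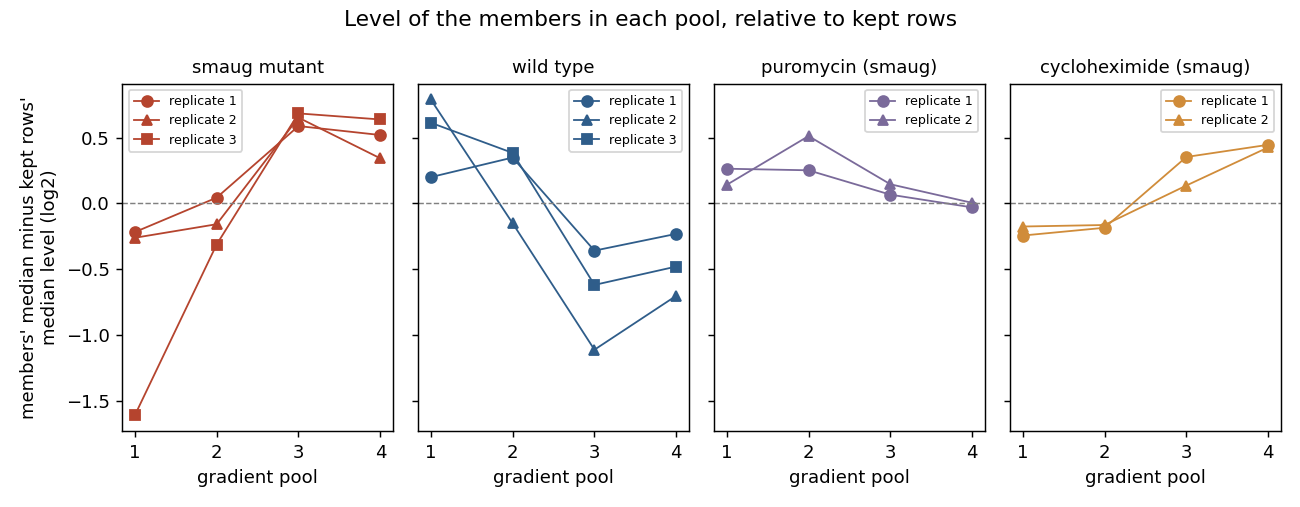
Median log2 level of the 150 members minus that of the 4893 kept rows (vertical axis) in each of the 4 gradient pools, 1 line per gradient, with *smaug*-mutant, wild-type, puromycin and cycloheximide gradients in separate panels. In the 3 *smaug* gradients the line lies below 0 in pool 1 and 0.59 to 0.68 above it in pool 3. In the 3 wild-type gradients it lies above 0 in pool 1 and below it in pools 3 and 4. With puromycin it lies between -0.03 and 0.511, and with cycloheximide between -0.2435 and 0.445.

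The members' mean log2 level over the 40 arrays lay between 11.2 and 14.2 with a median of 12.4, where kept rows had a median of 12.3 and the filter stood at 11.16. Among kept rows, 33 members were in the lowest 25% of mean level and 46 in the highest 25%. The log2 of the summed level over the pools differed between *smaug* mutants and wild type by 0.082 at the median in members and by -0.23 in kept rows, and 111 members lay above the median kept row. The filter on mean level was part of the rule, so no low row could be a member.

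The cycloheximide gradients gave a view of the members in *smaug1* lysate that the choice had not used, apart from the filter on mean level. Their median rank was 65.6 and 66.0 in cycloheximide replicates 1 and 2, with 120 and 102 members above rank 50. In both gradients 97 members stood above rank 50, where 39.1% of kept rows did, and 39 stood above rank 75, where 15.9% of kept rows did. At or below rank 50 in both were 25 members, where 39.1% of kept rows were. Across kept rows, cycloheximide rank correlated with *smaug* rank at 0.79 and with wild-type rank at 0.73 (Spearman). Rows ranked as high as the members in *smaug* mutants thus tended to stand high here too, and no rows matched for *smaug* rank were compared. The median of the members' mean cycloheximide rank was 65.1, beside 78.4 in *smaug* mutants, and 33 members stood at or above their *smaug* rank. The spread was wide, with mean cycloheximide ranks over the 2 gradients between 8.23 and 98.5.

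For the 150 rows with the largest loss of rank in *smaug* mutants, the median cycloheximide rank was 49.8, with 39 rows above and 43 at or below rank 50 in both gradients. A list chosen without *smaug* replicate 3 had a median cycloheximide rank of 70.3 with 115 rows above rank 50 in both, and a list chosen without wild-type replicate 1 had 66.4 with 90 rows. The lowest values came from the list chosen without *smaug* replicate 2, with a median of 58.6 and 78 rows, and from that chosen in Cy5 alone, with 61.7 and 78 rows. These values show where the members stood in a second set of *smaug1* gradients; no cycloheximide gradient of wild-type embryos was analysed here, so they do not compare genotypes. Among the named members, *sle* ranked 65.5 and 59.3 and the transcript of *Rad1* and *Sws1* ranked 85.1 and 90.8 with cycloheximide. FBtr0072302 ranked 69.0 and 91.3, and FBtr0073763 ranked 69.9 and 81.3.

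The members' TI was lower with puromycin, as was that of most rows. Their median TI was -3.38 and -3.30 in puromycin replicates 1 and 2, against 1.22 and -0.08 in cycloheximide replicates 1 and 2. Every member had a TI below 0 in both puromycin gradients, and the highest was -1.19. Of the kept rows only 0.143% and 0.204% had a TI above 0 in puromycin replicates 1 and 2. In 149 members both puromycin values lay below both cycloheximide values, where 96.5% of all rows did the same. With limma and Benjamini-Hochberg adjustment over all 6524 rows, TI was lower with puromycin in 142 of 150 members at an adjusted p under 0.05 and higher in 0 (0 also at an unadjusted p under 0.05), where 80.3% of all rows were lower and 0.0153% higher. Among kept rows, 84.7% were lower, and of the 150 rows with the largest loss of rank 141 were lower. The share called thus lay above that of all rows but was about the same in the opposite list.

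The median fall was larger in members than in rows at large, but members also started higher. Kept rows had a median TI of 0.62 and -0.61 in cycloheximide replicates 1 and 2, beside 1.22 and -0.08 in members. Whether the fall exceeds that of other rows with an equal cycloheximide TI was not tested. The median change in TI was -3.96 in members, -3.14 in kept rows, -3.00 in all rows and -3.22 in the opposite list, and 114 of the 150 members lay at or below the median of kept rows. Changes of single members lay between -6.98 and -0.99. The 8 members not called changed by -2.33 to -0.99, with adjusted p between 0.0543 and 0.223 (limma). Across the 150 members the Spearman correlation of cycloheximide rank with the change in TI was -0.86 (n = 150 rows), but the cycloheximide values enter both measures. With puromycin the members kept no place above the other rows, at a median rank of 35.8 and 43.7, and 106 members ranked lower with puromycin than with cycloheximide, where 47.3% of kept rows did.

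**Figure D5:**
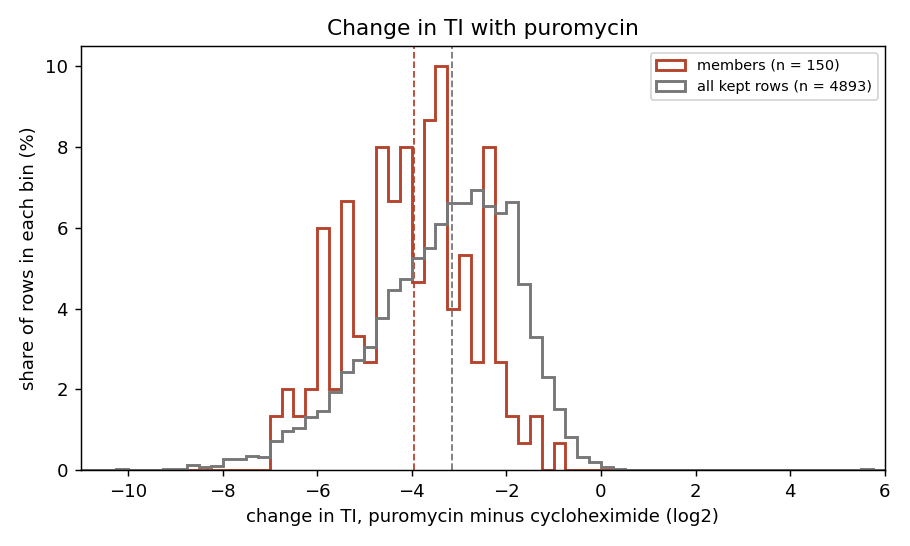
Change in TI, puromycin minus cycloheximide (horizontal axis, log2), as the share of rows in bins of 0.25 for the 150 members (red) and for the 4893 kept rows (grey), with dashed lines at the medians of -3.96 in members and -3.14 in kept rows. Both distributions lie almost wholly below 0, and that of the members sits further to the left and overlaps the other widely.

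The puromycin comparison depends on the scale of the arrays. With the median TI of each gradient set to 0, which removes the fall shared by all rows, 24 members were lower, where 7.48% of all rows were lower and 2.48% higher, and the median change of the members was -0.93. Without that centring, lists chosen without *smaug* replicate 3 and without wild-type replicate 1 had 147 and 138 rows lower with puromycin, where 80.3% of all rows were lower.

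The largest fall was that of FBtr0081373, with a TI of -4.61 and -4.55 in puromycin replicates 1 and 2 and of 3.25 and 1.55 in cycloheximide replicates 1 and 2. FBtr0081373 changed by -6.98 (limma, standard error 0.78, adjusted p = 0.00129). In the untreated gradients its TI was 1.42, 1.99 and 4.79 in *smaug* replicates 1, 2 and 3, against 0.063, -2.71 and -1.0 in wild-type replicates 1, 2 and 3. FBtr0076454 followed, with -4.96 in both puromycin gradients and 2.15 and 1.86 in the cycloheximide gradients. FBtr0076454 changed by -6.96 (limma, standard error 0.64, adjusted p = 0.00125). Its TI in the untreated gradients was 0.65, 2.35 and 3.30 in *smaug* replicates 1, 2 and 3, against -1.49, -1.13 and -2.01 in wild-type replicates 1, 2 and 3. Both transcripts were chosen for the size of their fall, and in both the drug groups lay far apart.

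The transcript of *Rad1* and *Sws1* had a TI of -3.67 and -3.97 with puromycin and of 2.16 and 1.27 with cycloheximide. FBtr0077747 changed by -5.54 (limma, standard error 0.69, adjusted p = 0.00134). Its log2 level in pool 3 was 10.2 and 10.4 with puromycin against 13.6 and 13.5 with cycloheximide, and in pool 1 it was 13.8 and 14.4 with puromycin against 11.3 and 11.9 with cycloheximide. With puromycin the signal was thus lower in the deep part of the gradient and higher at the top.

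For *sle* the response was smaller, with a TI of -2.58 and -2.29 with puromycin and of 1.22 and -0.31 with cycloheximide. FBtr0082231 changed by -2.89 (limma, standard error 0.76, adjusted p = 0.0116). Its pool 4 level was 10.6 and 11.5 with puromycin against 14.3 and 13.7 with cycloheximide, while its pool 3 level was 12.6 and 13.0 with puromycin against 12.7 and 12.8 with cycloheximide. In pool 3 the level of FBtr0082231 differed by 0.03 (limma, standard error 0.52, adjusted p = 0.978). Its TI call was lost without either puromycin gradient (change -2.75, adjusted p = 0.112 without replicate 1; change -3.04, adjusted p = 0.0839 without replicate 2, limma). It was also lost for FBtr0082231 from pool 3 alone (change -1.40, adjusted p = 0.108, limma) and with all 10 gradients in 1 fit (change -2.89, adjusted p = 0.169, limma), and its sign turned when gradients were centred, to 0.13.

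The first 2 members by gain fell by similar amounts. FBtr0072302 had a TI of -4.71 and -3.60 with puromycin against 1.36 and 1.32 with cycloheximide, a change of -5.49 (limma, standard error 0.70, adjusted p = 0.00138). FBtr0073763 had -4.66 and -4.30 with puromycin against 1.40 and 0.58 with cycloheximide, a change of -5.47 (limma, standard error 0.68, adjusted p = 0.00134). With gradients centred FBtr0072302 no longer passed the threshold (change -2.47, adjusted p = 0.0652, limma). The same held with quantile normalisation within pools (change -2.52, adjusted p = 0.0515, limma).

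By pool, nearly all members were lower in pool 4 with puromycin, as were most rows. The pool model took the 4 pools of each gradient as independent arrays, so its p-values may be too small. In pool 4, 147 of 150 members were lower with puromycin (limma, adjusted within the pool over all rows) and 0 higher (0 also unadjusted), where 92.8% of all rows were lower and 0.092% higher. Among kept rows 95.5% were lower in pool 4, as were 146 of the 150 rows with the largest loss of rank. The median change was -2.96 in members and -2.52 in all rows. The median member had 3.62% ± 0.065 of its signal in pool 4 with puromycin and 36.1% ± 6.1 with cycloheximide (SD, n = 2 each). In pool 3, 45 members were lower and 0 higher (1 higher unadjusted), where 26.2% of all rows were lower and 0.261% higher, with a median change of -1.03 in members and -0.80 in all rows.

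In pool 1, 99 members were higher with puromycin and 0 lower (0 also unadjusted), where 37.2% of all rows were higher and 0.0153% lower. The median change was 1.83 in members and 1.27 in all rows, and the median member had 57.6% ± 6.7 of its signal there with puromycin and 21.4% ± 10.2 with cycloheximide (SD, n = 2 each). In pool 2, 54 members were higher and 0 lower (1 lower unadjusted), where 15.3% of all rows were higher and 4.66% lower, with a median change of 1.57 in members and 0.83 in all rows. Among kept rows 44.3% were higher in pool 1, 18.4% higher in pool 2 and 28.6% lower in pool 3. Of the 150 rows with the largest loss of rank, 55 were higher in pool 1 and 8 in pool 2. In the same list 75 were lower in pool 3 and 146 in pool 4. The opposite lists thus had different counts in pools 1 to 3 and close counts in pool 4, though no test of these differences was made.

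The counts in pools 1, 2 and 3 changed with the drug gradients used. A fit without a drug gradient leaves 1 gradient in a group, so a lower count cannot be told apart from lower power. In pool 1 the count of members higher was 1 without cycloheximide replicate 1, where 0.904% of all rows were higher, and 52 without puromycin replicate 2, where 16.2% were. With pool 1 fitted alone it was 0 (91 unadjusted, limma), and 0% of all rows were called. In pool 2 it was 104 without puromycin replicate 1, where 37.8% of all rows were higher, and 22 without puromycin replicate 2, where 4.69% were. Without either cycloheximide gradient limma called 0 members higher in pool 2 (47 without replicate 1 and 51 without replicate 2, unadjusted) and 0% of all rows. In pool 3 the count of members lower was 0 without either cycloheximide gradient (39 without replicate 1 and 46 without replicate 2, unadjusted, limma), and again 0% of all rows were called. In pool 4 the count of members lower was 133 to 145 with 1 drug gradient left out, where 75.6% to 88% of all rows were lower.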

How the data were processed

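Embryo RNA from 4 pools of each of 10 polysome gradients was hybridised to NimbleGen arrays in 1 colour channel, giving 40 arrays. The deposited values are log2 levels per transcript. The authors normalised arrays by the quantile step of RMA and then transformed each array linearly, by a slope and an offset that brought the signals of *Arabidopsis* spike-in RNA to their mean over arrays, so an error in the spike-in signal of 1 array moves all its rows. Values are read as log2, the scale that RMA writes. An aligner does not apply, and a genome build is not given in the sources used here. No scanner files were used here, and the number of arrays limits the precision.

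Groups and replicate numbers came from the labels. TI was compared between 2 puromycin and 2 cycloheximide gradients with limma 3.58.1 (lmFit, eBayes; R 4.3.3) on a single TI for each gradient, and pool levels in a group-means model whose spread was shared over the 4 pools. P-values were adjusted by Benjamini-Hochberg over all 6524 rows, with a threshold of 0.05. Both fits and the rank rule were run on simulated data with known changes added. The simulated gradients and pools were independent, and the gain added for the rank rule was far above its noise. The simulation therefore does not bear on the split lysates or on p-values that may be too small. The members, lists and tests were chosen with earlier results of these data known. The rule for single rows was to name every member with a gene symbol and, by identifier, the 2 with the largest gain and the 2 with the largest fall in TI with puromycin. Planned lists of Smaug-bound mRNAs, chaperonin, proteasome, glycolysis, lipid droplet, replication, chromatin, germ plasm and ribosomal genes were void, since under 80% of each could be named. Names came from a RefSeq gene table of Release 6 plus ISO1 MT.

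Same-numbered drug gradients are one split lysate, by the methods of the study, and their deviations correlated at 0.46. Puromycin replicate 1 and cycloheximide replicate 2 were labelled with Cy3, and puromycin replicate 2 and cycloheximide replicate 1 with Cy5. Dye therefore differed within each split lysate, though each drug had both dyes. Alternatives covered the replicate block, scaling, pools, filter, variance model, dye and each gradient left out. Reading rows in gradients or a dye that had no part in choosing them, and following lists chosen without 1 gradient, were added after seeing the data. All values were kept, the 6 below 4 included.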

Additional observations from a re-analysis of the deposited data

How the results depend on the processing

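With the replicate block, which pairs the split lysates, 146 members were lower in TI with puromycin in place of 142. Of all rows, 85.6% were then lower. With dye as a covariate, 142 members were lower, where 73.7% of all rows were. The block moved no count of members called by over 1.5 times. Centring gradients gave 24 lower, quantile normalisation within pools 31 lower and 1 higher, where 9.84% of all rows were lower and 7.88% higher, and centring with the block (chosen after seeing the data) 55 lower and 4 higher, where 18.5% of all rows were lower and 14% higher. The median change of -3.96 became -0.93 with centring, -0.86 with quantile normalisation, -2.99 from pool 3 alone and -4.92 from pool 4 alone. Leaving out each drug gradient gave a median change of -4.56 to -3.28, and -3.28 was that without cycloheximide replicate 1. The count of members lower and the share of all rows lower both fell most when a puromycin gradient was left out. With arrays centred, 33 members were higher in pool 1 (10.4% of all rows), 54 higher and 8 lower in pool 2 (13.8% and 15.3%), 20 higher and 40 lower in pool 3 (14.3% and 17.1%), and 2 higher and 53 lower in pool 4 (11.1% and 19%). With each pool fitted alone, limma called 0 higher in pool 1 (91 unadjusted) and 0% of all rows. In pool 3 the same fit called 93 lower and 3 higher (57.7% and 5.63% of all rows). The filter on low rows gave 1 higher in pool 3, where 0.307% of the rows kept were higher. Without 1 drug gradient the counts were 1 to 115 higher in pool 1, 0 to 104 higher in pool 2, and 0 to 50 lower and 0 to 1 higher in pool 3. The share of all rows called rose and fell with each of these counts. Such fits leave 1 gradient in a group, so a lower count cannot be told apart from lower power. Of the 150 members, 93 were shared with a choice by difference of mean TI, 83 by medians over gradients, 90 in Cy3 and 65 in Cy5 alone, and 100 to 128 without 1 untreated gradient. The change of *sle* turned to 0.13 with centring and 0.37 with quantile normalisation (adjusted p 0.838 and 0.577, limma). The cause was not tested. With 2 gradients a group, small changes were not detectable.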
